A study of Mus musculus with 6 samples.

Results

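Endothelial-mesenchymal transition was examined here through 10 genes that serve as its usual markers, selected by gene symbol from the 49315 genes of the count table. They are the contractile and actin-binding genes Acta2, Tagln, Cnn1, Cnn2 and Myl9, the transcription factors Snai1, Snai2, Zeb1 and Zeb2, and the intermediate filament gene Vim. The cells were bEND.3, an established line of mouse brain endothelial cells, so one line stands for the endothelium. In the GapmeR group (n = 4 samples) they were transfected with a custom LNA GapmeR, a locked nucleic acid antisense oligonucleotide that leads RNase H to cut its RNA target, directed at the long noncoding RNA Gm39822. In the Negative control group (n = 2 samples) they received a negative control LNA GapmeR; other control libraries that the study describes were not analysed here. Both groups received 100 nM with Lipofectamine 2000, so the carrier and an oligonucleotide of this chemistry were shared by all samples, and 1 GapmeR sequence stands for the knockdown. The time between transfection and RNA isolation for these libraries is not given in the sources used here. The comparison asks how these markers stood when Gm39822 was lowered.

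In endothelial-mesenchymal transition, endothelial cells lose junctional and lineage genes and take on contractile, migratory and matrix-producing features of mesenchymal cells, typically under TGF-beta signaling. Transcription factors of the SNAIL and ZEB families bind E-boxes and repress junctional genes. The smooth muscle contractile genes are typically driven by serum response factor (SRF) and its myocardin-related cofactors through CArG boxes, while vimentin, the principal intermediate filament of mesenchymal cells, is also abundant in endothelial cells.

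Total RNA libraries held 29261988 to 37117934 counts per sample, and no pair of replicates agreed within sampling noise, with chi-square values of 5.41 to 25.2 per degree of freedom. The labels do not say whether samples of a group came from separate cultures, so p-values measure the spread between these samples, which may be technical. Levels are given as TMM-normalized CPM, a share of the scaled library total, where 3 counts correspond to 0.0771 to 0.110 CPM. Differences are edgeR log2 fold changes, GapmeR minus control, called at an adjusted p under 0.05 over 18234 tested genes. The targeted RNA had 2, 1, 4 and 2 counts in GapmeR 1 to 4 and 61 and 56 counts in Negative control 1 and 2 (log2 fold change −4.82, SE 0.41, adjusted p = 8.8e-08, edgeR). Summed over samples, the 117 control counts against 9 GapmeR counts gave a control to GapmeR ratio of 29.8 per scaled library size, with an exact 95% counting interval of 15.2 to 66.9. GapmeR 3 stood apart by its collagen transcripts, with 1179 counts of Col1a1 against 75 to 148 in the other GapmeR samples. The 18 endothelial markers were all tested, and their summed level was 11271 to 12928 CPM in the GapmeR samples and 13487 to 13991 CPM in the controls.

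Of the 10 markers, 9 passed the filter on low counts (at least 5 counts in at least 2 samples). Tagln was higher in the GapmeR group, Cnn2, Snai2, Zeb2 and Vim were lower, and Acta2, Myl9, Snai1 and Zeb1 were not called. Cnn1 was too low to be tested. Over all genes tested, 25.4% were called higher and 20.0% lower, so that 1 member higher and 4 lower out of 9 has to be read against a comparison in which 45.3% of genes were called. The groups did not overlap for these same 5 genes, where 31.9% of all genes had every GapmeR sample above both controls and 27.3% had every GapmeR sample below both. The median log2 fold change of the 9 genes was −0.08, against 0.03 for all genes tested. When samples were scaled by library size alone, in place of TMM, the median of all genes moved to 0.17 and that of the 9 genes to 0.07, and 2 members were then higher (Tagln and Snai1) and 1 lower (Vim). With that scaling, 6106 of the 18234 genes tested were higher and 2135 lower. With GapmeR 3 left out, 1 member was higher and 4 were lower, where 4800 of all 17954 genes tested were higher and 3508 lower.

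Levels of the 10 genes covered a wide range in the controls when compared per length (CPM per kb of the canonical transcript). Vim stood first at 3176 CPM per kb and was the gene with the 3rd highest count in the controls. Cnn2 followed at 48.5 CPM per kb, then Snai1 at 12.4, Zeb1 at 8.18, Zeb2 at 7.54 and Snai2 at 1.75. The smooth muscle genes were at the bottom, with Tagln at 0.316, Acta2 at 0.208, Myl9 at 0.138 and Cnn1 at 0.0075 CPM per kb. In this order the control ranges of Tagln and Acta2 overlapped, as did those of Acta2 and Myl9, while those of Zeb1 (7.98 to 8.38 CPM per kb) and Zeb2 (7.15 to 7.92) did not. In the GapmeR group the order was the same down to Zeb2, and Snai2 (1.14 to 1.43 CPM per kb) and Tagln (1.07 to 1.68) then had overlapping levels.

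**Figure D1:**
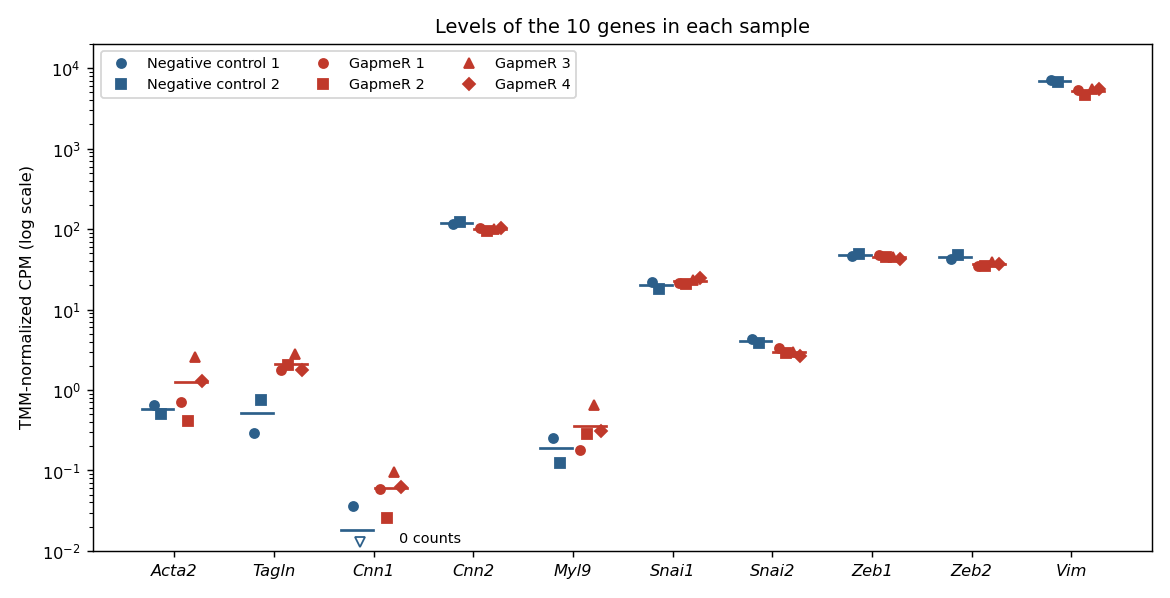
TMM-normalized CPM (log scale) of the 10 genes in each of the 6 samples, with controls in blue, GapmeR samples in red and a bar at each group mean; an open triangle marks 0 counts. Tagln lies higher in every GapmeR sample, whereas Acta2 and Myl9 spread across the control values and Vim sits just below its controls.

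Promoters of the contractile genes were searched for the site bound by SRF. RefSeq promoters (GRCm38.p6) matched 7 of the 10 genes, all but Tagln, Snai2 and Zeb1, and the 250 bases before each start were searched on both strands for this site, the CArG box, which occurred in 1.47% of 32851 promoters. A looser form with at most 1 deviating middle letter occurred in 8.59%. The strict form was present before Cnn2 (bases 56 to 47 before the start) and Myl9 (161 to 152), and the looser form occurred a further time before Myl9 (99 to 90) and at both places before Acta2 (84 to 75 and 34 to 25). The Cnn1 window held neither form. The sequences with a match are shown. The Cnn2 window is chr10:79988350-79988599 (+), and the Myl9 window, which stops at the RefSeq gene limit given below, is chr2:156775214-156775407 (+). For Acta2 the 30 bases around each match are given, chr19:34255438-34255467 and chr19:34255388-34255417 (both −). These stretches lie before the start used for the RefSeq promoter but inside the RefSeq gene limits of Acta2 given below, which reach past that start. Capitals mark the CArG letters, strict or loose, as a description of sequence only.
Cnn2: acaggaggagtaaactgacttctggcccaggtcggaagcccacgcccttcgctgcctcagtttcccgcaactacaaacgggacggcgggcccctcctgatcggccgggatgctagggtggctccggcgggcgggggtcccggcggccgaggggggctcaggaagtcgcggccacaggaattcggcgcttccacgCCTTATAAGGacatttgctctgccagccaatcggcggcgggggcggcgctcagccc
Myl9: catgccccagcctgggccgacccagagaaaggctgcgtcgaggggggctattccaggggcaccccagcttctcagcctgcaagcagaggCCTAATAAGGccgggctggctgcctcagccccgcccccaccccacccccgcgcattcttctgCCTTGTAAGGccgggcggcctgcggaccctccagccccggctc
Acta2, distal match: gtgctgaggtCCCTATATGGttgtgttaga
Acta2, proximal match: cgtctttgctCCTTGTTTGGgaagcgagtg

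Tagln, which encodes the actin-binding protein transgelin (SM22-alpha), was the member that rose. Tagln (ENSMUSG00000032085; mm10 chr9:45929628-45936058) had 60, 80, 86 and 57 counts in GapmeR 1 to 4 and 8 and 24 counts in Negative control 1 and 2. Every GapmeR sample was above both controls, and the controls themselves differed. Its average (± SD) was 2.09 ± 0.474 CPM over the 4 GapmeR samples and 0.522 ± 0.325 CPM over the 2 controls, a log2 fold change of 1.96 (SE 0.35, 95% interval 1.22 to 2.69), or 3.89-fold (adjusted p = 0.00024, edgeR). The size depended on the controls: the log2 fold change was 1.49 without Negative control 1 and 2.84 without Negative control 2, where a fit with 1 control assumes that it varies like the GapmeR samples. It was 1.82 without GapmeR 3 and 1.85 without GapmeR 3 and 4, and past the threshold each time. The GapmeR libraries had counts in 22830 to 23566 genes and the controls in 20573 and 21087. The part of this in the rise of a low gene such as Tagln was not tested.

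Tagln overlaps genes on the opposite strand, and the strand setting of the counting is not given in the sources used here. In the GENCODE vM39 annotation its exons share 1241 bases with the long noncoding RNA Gm48529 and 123 bases with Pcsk7, a proprotein convertase gene. Gm48529 had 89, 120, 94 and 85 counts in GapmeR 1 to 4 and 53 in each control (log2 fold change 0.66, SE 0.20, adjusted p = 0.012, edgeR). Pcsk7 rose from 35.8 to 50.1 CPM (log2 fold change 0.48, adjusted p = 6e-05, edgeR). Sidt2, the expressed neighbor that ends 1715 bases upstream on the same strand, was not called (log2 fold change 0.09, adjusted p = 0.38, edgeR). The overlapping genes thus also rose, by less than Tagln; their part in the Tagln counts was not tested.

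Acta2, the smooth muscle alpha-actin gene and the most used marker of the contractile state, was not called, and its mean rested on GapmeR 3 and 4. Acta2 (ENSMUSG00000035783; mm10 chr19:34240336-34255585) had 24, 16, 80 and 42 counts in GapmeR 1 to 4 and 18 and 16 in Negative control 1 and 2. GapmeR 1 and 2 were near the controls, GapmeR 3 was the highest, and the groups overlapped. Averages (± SD) were 1.25 ± 0.960 CPM over the 4 GapmeR samples and 0.579 ± 0.110 CPM over the 2 controls, and the log2 fold change was 1.09 (SE 0.75, 95% interval −0.69 to 2.86, adjusted p = 0.28, edgeR). Without GapmeR 3 the log2 fold change was 0.48 (adjusted p = 0.393, edgeR), and without GapmeR 3 and 4 it was −0.035 (adjusted p = 0.958, edgeR). Without GapmeR 2 it became 1.40 and passed the threshold (adjusted p = 0.0479, edgeR), as it did with no filter on low counts (1.08, adjusted p = 0.0368, edgeR). In GENCODE vM39 its exons share 301 bases with Stambpl1 on the opposite strand, which was at 5.31 CPM against 5.85 CPM in the controls (log2 fold change −0.14, adjusted p = 0.45, edgeR). An increase of Acta2 shared by the GapmeR samples was therefore not detectable here, and the interval leaves room for both a fall and a several-fold rise.

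Myl9, a regulatory light chain of smooth muscle myosin, had fewer counts than Acta2 and was likewise not called. Myl9 (ENSMUSG00000067818; mm10 chr2:156775408-156781657) had 6, 11, 20 and 10 counts in GapmeR 1 to 4 and 7 and 4 in Negative control 1 and 2. GapmeR 3 was again the highest and GapmeR 1 lay between the controls. GapmeR 2 was above both controls in CPM, where for Acta2 it was below both. Averages (± SD) were 0.353 ± 0.202 CPM over the 4 GapmeR samples and 0.190 ± 0.0921 CPM over the 2 controls, and the log2 fold change was 0.89 (SE 0.60, 95% interval −0.39 to 2.16, adjusted p = 0.24, edgeR). Without GapmeR 3 it was 0.47, and at these counts neither a rise nor its absence could be shown.

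Cnn1, the basic calponin of differentiated smooth muscle, was at the limit of detection. Cnn1 (ENSMUSG00000001349; mm10 chr9:22099221-22109221) had 2, 1, 3 and 2 counts in GapmeR 1 to 4 and 1 and 0 counts in the controls. All values were at or under 3 counts, so no fold change is given. Its exons share 961 bases with Elof1 on the opposite strand, at 81.9 CPM against 79.4 CPM in the controls. Cnn2, which encodes the calponin found in many non-muscle cells, was on the contrary well expressed and fell slightly. Cnn2 (ENSMUSG00000004665; mm10 chr10:79988600-79995400) had levels of 104, 94.6, 102 and 102 CPM in GapmeR 1 to 4 and 116 and 123 CPM in the controls. All GapmeR samples were below both controls, with averages (± SD) of 100.6 ± 4.16 CPM over 4 samples and 119.6 ± 5.49 CPM over 2 samples. The log2 fold change was −0.25 (SE 0.07, 95% interval −0.40 to −0.10, adjusted p = 0.0088, edgeR), or −15.9%. The call was lost without Negative control 2 (−0.18, adjusted p = 0.189, edgeR) and with library size scaling (−0.10, adjusted p = 0.236, edgeR).

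GapmeR 3, where Acta2, Tagln and Myl9 were all highest, also held the most type I and type III collagen transcripts. The counts in GapmeR 1 to 4 and then the controls were 75, 126, 1179, 148, 46 and 90 for Col1a1, which encodes the alpha 1 chain of type I collagen. For Col1a2, the alpha 2 chain, they were 58, 94, 781, 99, 44 and 58. For Col3a1, the type III collagen gene, they were 56, 67, 552, 95, 38 and 46. The summed level of the 10 fibroblast markers was 98.3 CPM in GapmeR 3, 22.7 to 29.5 CPM in the other GapmeR samples and 16.4 to 17.8 CPM in the controls. Col1a1, Col1a2 and Col3a1 belong to that list and made up 38.0, 25.2 and 17.8 CPM of the sum in GapmeR 3. The fibroblast marker Fap had fewer counts in GapmeR 3 than in the other GapmeR samples, and the fibroblast marker Tcf21 had 0 counts in every sample. The 16 macrophage markers summed to 390 CPM in GapmeR 3 and 419 CPM in GapmeR 4, the samples with the most Acta2, against 221 to 241 CPM in GapmeR 1 and 2 and 182 to 188 CPM in the controls. The 11 mural cell markers, which cover pericytes and smooth muscle, summed to 179 to 209 CPM in the GapmeR samples and 189 to 213 CPM in the controls, most of it Mcam, which endothelial cells also express. Without Mcam they summed to 12.4, 12.1, 20.1 and 17.1 CPM in GapmeR 1 to 4 and 4.82 and 4.04 CPM in the controls. This sum includes the contractile genes Myh11 and Des, so it is not independent of the contractile genes. Myh11 alone was at 5.37, 5.39, 5.93 and 5.85 CPM in GapmeR 1 to 4 and at 0.365 and 0.251 CPM in the controls. In bulk RNA, a few cells with much of a transcript and many cells with little of it cannot be told apart; the part of these cell types in the contractile gene values was not tested. In GapmeR 1 and 2, Tagln was at 1.77 and 2.05 CPM.

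**Figure D2:**
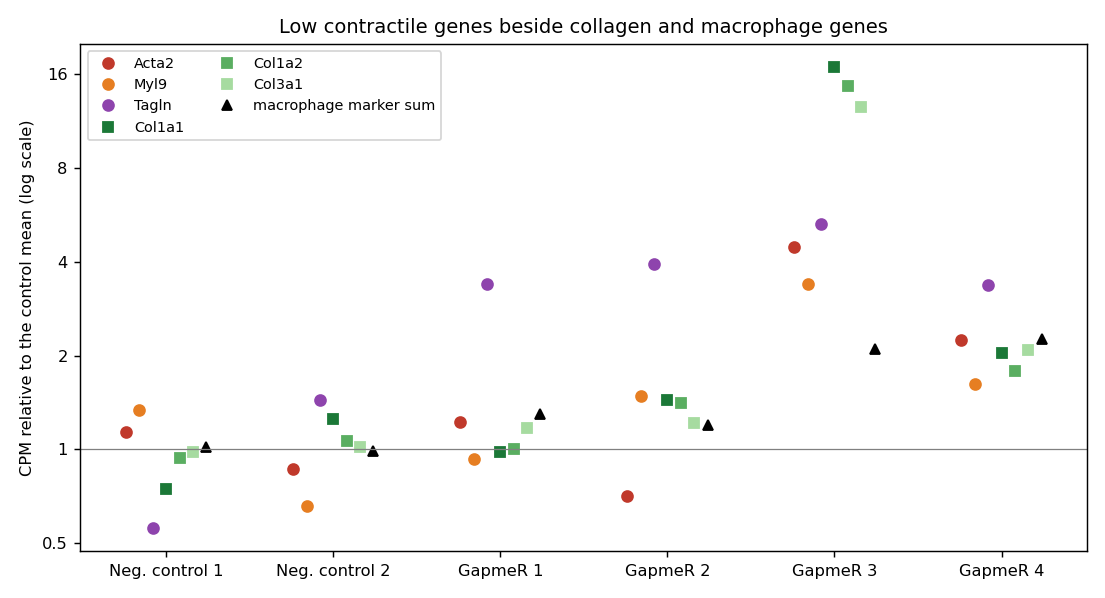
Level of each transcript in each sample relative to its control mean (log scale, 1 marks the control mean), for Acta2, Myl9 and Tagln, 3 collagen genes and the sum of 16 macrophage markers. Collagen genes and Acta2 are highest in GapmeR 3, while Tagln is raised in all 4 GapmeR samples.

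Of the near copies of the contractile members that were tested, none was called higher by edgeR. Cnn3, a non-muscle calponin, was at 260 CPM against 253 CPM in the controls (log2 fold change 0.04, adjusted p = 0.70, edgeR). The light chain genes Myl12a and Myl12b, close relatives of Myl9, had log2 fold changes of −0.34 (adjusted p = 0.0032, edgeR) and −0.14 (adjusted p = 0.11, edgeR). Actg2, the enteric smooth muscle actin, had 10, 15, 13 and 12 counts against 8 and 1, every GapmeR sample above both controls in CPM (log2 fold change 1.24, 95% interval −0.057 to 2.53, adjusted p = 0.11, edgeR). Reads shared among these copies could be split by the counting, so the low counts of Acta2 and Myl9 carry that uncertainty.

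Of 28 other contractile and actin-binding genes, 24 were tested, of which 2 were higher, 8 lower and 14 not called, with a median log2 fold change of −0.09. The shares over all genes, 25.4% higher and 20.0% lower, are the background for this and each later list. Myh11, the smooth muscle myosin heavy chain, showed the largest change of the list. It had 182, 210, 184 and 189 counts in GapmeR 1 to 4 against 10 and 8, with no overlap and little spread, and rose, with averages (± SD) of 0.308 ± 0.0809 CPM over the 2 controls and 5.64 ± 0.296 CPM over the 4 GapmeR samples and a log2 fold change of 4.19 (SE 0.24, adjusted p = 9.9e-10, edgeR). Unlike Acta2, Myh11 varied little among the GapmeR samples. The lower genes included Tagln3, a transgelin relative typical of neurons (−0.79, adjusted p = 0.016, edgeR). Myh11, like the member Tagln, was thus higher while the list median was not above that of all genes. Actc1, Lmod1, Des and Synpo2 of this list were too low to be tested, so its counts and median do not cover them. Under library size scaling 8 genes were higher and 1 lower, with a median of 0.06 below the 0.17 of all genes. That scaling called 6106 of all 18234 genes higher and 2135 lower, the background for each list given that way. Without GapmeR 3 and 4, 1 gene of the list was higher and 4 were lower, where 4458 of all 17524 genes tested were higher and 3203 lower.

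SRF and its cofactors and upstream regulators moved in both directions. Of 14 genes, 13 were tested, of which 2 were higher and 6 lower (median −0.22). Srf was itself lower (log2 fold change −0.31, adjusted p = 0.0021, edgeR), and Mkl1, which encodes the coactivator MRTF-A, was higher (0.49, adjusted p = 0.0030, edgeR). The small GTPase genes Rhob (−0.60, adjusted p = 1.6e-05, edgeR) and Rhoc (−0.47, adjusted p = 1.1e-04, edgeR) were lower. With library size scaling the split was 3 higher and 3 lower.

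Among the transcription factors, none of the 4 members rose under TMM scaling. Snai1, which encodes SNAIL, was not called. Snai1 (ENSMUSG00000042821; mm10 chr2:167538195-167542814) was at 21.4, 20.6, 23.4 and 24.8 CPM in GapmeR 1 to 4 and at 22.1 and 18.0 CPM in the controls, and the groups overlapped. Averages (± SD) were 22.6 ± 1.90 CPM over the 4 GapmeR samples and 20.1 ± 2.88 CPM over the 2 controls, and the log2 fold change was 0.17 (SE 0.10, 95% interval −0.05 to 0.39, adjusted p = 0.20, edgeR). Library size scaling gave 0.32 and passed the threshold (adjusted p = 0.0241, edgeR). Its promoter, chr2:167537945-167538194 (+, GRCm38.p6), is printed because it holds the E-box CACCTG, the letters that SNAIL and ZEB proteins recognize, at bases 126 to 121 before the start (capitals). CACCTG occurred on either strand in 17.2% of promoters of that length.
Snai1: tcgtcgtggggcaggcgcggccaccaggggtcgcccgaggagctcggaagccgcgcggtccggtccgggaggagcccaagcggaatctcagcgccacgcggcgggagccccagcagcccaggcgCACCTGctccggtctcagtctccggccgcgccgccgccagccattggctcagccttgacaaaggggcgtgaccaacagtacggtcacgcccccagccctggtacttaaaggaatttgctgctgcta

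Snai2, which encodes SLUG, was lower, close to the threshold. Snai2 (ENSMUSG00000022676; mm10 chr16:14705852-14709395) had 112, 111, 91 and 85 counts in GapmeR 1 to 4 and 118 and 121 in Negative control 1 and 2. In CPM the GapmeR samples were at 3.31, 2.85, 2.93 and 2.63 and the controls at 4.31 and 3.79, with no overlap. Expression fell, with averages (± SD) of 4.05 ± 0.365 CPM over the 2 controls and 2.93 ± 0.281 CPM over the 4 GapmeR samples and a log2 fold change of −0.46 (SE 0.17, 95% interval −0.82 to −0.10, adjusted p = 0.035, edgeR), or −27.5%. The direction was negative in all 14 alternative settings, but only 4 passed the threshold, and leaving out GapmeR 2, GapmeR 4 or either control ended the call (log2 fold changes −0.45, −0.41, −0.35 without Negative control 1 and −0.53 without Negative control 2, adjusted p = 0.0509 to 0.257, edgeR). Snai3, the remaining SNAIL family gene, had 0 to 3 counts per sample and was not tested.

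Zeb1 and Zeb2, which encode the paired zinc finger repressors, differed from each other in call. Zeb1 (ENSMUSG00000024238; mm10 chr18:5591327-5775468) was at 47.4, 44.6, 44.7 and 42.8 CPM in GapmeR 1 to 4 and at 46.3 and 48.6 CPM in the controls, which overlap. Averages (± SD) were 44.8 ± 1.89 CPM over the 4 GapmeR samples and 47.4 ± 1.63 CPM over the 2 controls, and the log2 fold change was −0.08 (SE 0.07, 95% interval −0.24 to 0.07, adjusted p = 0.38, edgeR). Its sign turned with library size scaling (0.066, adjusted p = 0.483, edgeR), so the data give no direction for Zeb1, and the interval excludes changes of 1.5-fold or more. Zeb2 (ENSMUSG00000026872; mm10 chr2:44983512-45117442) was at 35.2, 34.4, 39.3 and 37.3 CPM in GapmeR 1 to 4 and at 43.1 and 47.8 CPM in the controls, all GapmeR samples being lower. Expression fell, with averages (± SD) of 45.4 ± 3.30 CPM over the 2 controls and 36.6 ± 2.18 CPM over the 4 GapmeR samples and a log2 fold change of −0.32 (SE 0.08, 95% interval −0.49 to −0.15, adjusted p = 0.0044, edgeR), or −19.7%. The call was lost without Negative control 2 (−0.22, adjusted p = 0.149, edgeR) and with library size scaling (−0.17, adjusted p = 0.0998, edgeR). The difference between the Zeb1 and Zeb2 changes was not tested.

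Zeb2os, the antisense gene at the Zeb2 locus (ENSMUSG00000052248; mm10 chr2:45111138-45114087), fell further than Zeb2. It had 59, 85, 56 and 63 counts in GapmeR 1 to 4 and 111 and 150 in the controls. All GapmeR samples were below both controls, at 1.92 ± 0.196 CPM (average ± SD of 4 samples) against 4.38 ± 0.458 CPM (2 samples), and the log2 fold change was −1.19 (SE 0.18, adjusted p = 5.5e-05, edgeR). The exons of both genes share 871 bases in GENCODE vM39, and without the strand setting of the counting, reads of Zeb2 and Zeb2os in that stretch cannot be told apart. Zeb2os had far fewer counts than Zeb2 in every sample.

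Other transcription factors of the transition and corepressors that work with SNAIL or ZEB proteins were lower where called. Of 18 genes, 14 were tested, of which 0 were higher, 7 lower and 7 not called by edgeR, with a median log2 fold change of −0.26. The shares over all genes were 25.4% higher and 20.0% lower. Prrx1, a homeobox factor of mesenchymal lineages, had the largest change (−2.0, SE 0.29, adjusted p = 3.9e-05, edgeR). Rcor1, the CoREST corepressor (−0.69, adjusted p = 1.5e-06, edgeR), Foxc2, a forkhead factor of vascular and lymphatic development (−0.53, adjusted p = 0.016, edgeR), and Tcf4, an E-protein (−0.52, adjusted p = 1.5e-04, edgeR), were also lower. With library size scaling, 2 were higher and 4 lower.

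Vim, encoding vimentin, was the most abundant member and was lower in the GapmeR group. Vim (ENSMUSG00000026728; mm10 chr2:13574311-13582826) was at 5386, 4580, 5531 and 5546 CPM in GapmeR 1 to 4 and at 7190 and 6741 CPM in Negative control 1 and 2. GapmeR 2 was the lowest, the other 3 GapmeR samples lay close together, and none reached the controls. Expression fell, with averages (± SD) of 6965 ± 318 CPM over the 2 controls and 5261 ± 459 CPM over the 4 GapmeR samples and a log2 fold change of −0.40 (SE 0.09, 95% interval −0.60 to −0.21, adjusted p = 0.002, edgeR), or −24.5%. With GapmeR 2 left out the log2 fold change was −0.34, and with Negative control 1 left out the call was lost at the same value (−0.34, adjusted p = 0.0624, edgeR). It was past the threshold in 13 of 14 alternative settings.

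**Figure D3:**
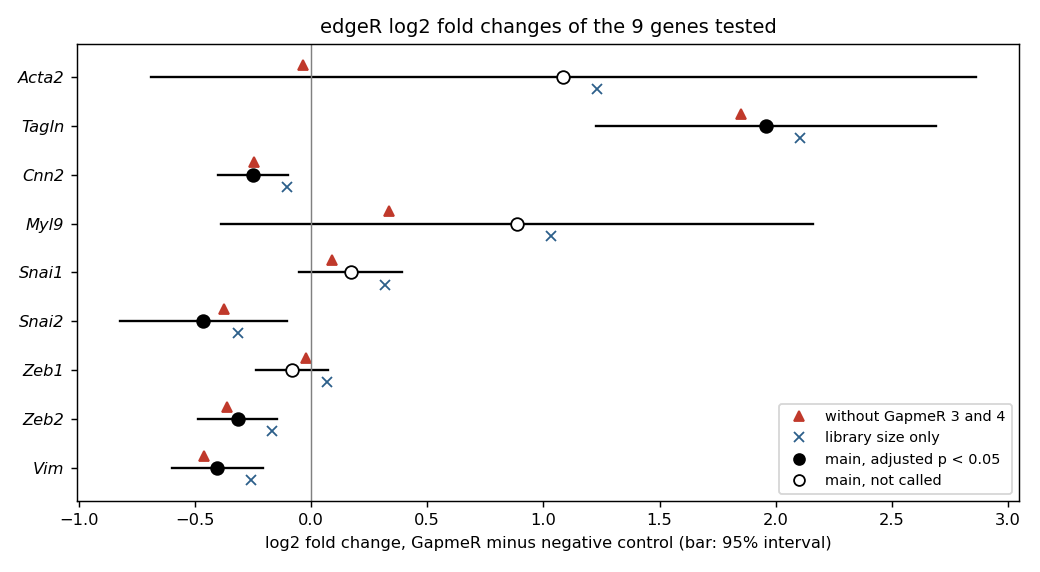
Log2 fold change of the 9 tested genes (GapmeR minus negative control) with 95% intervals, filled where the adjusted p was under 0.05, beside the values without GapmeR 3 and 4 (triangles) and with library size scaling (crosses). Only Tagln lies to the right among the called genes; Acta2 falls to −0.035 without GapmeR 3 and 4, and Zeb1 changes sign with library size scaling.

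Other intermediate filament and lamina genes moved in both directions. All 8 were tested, of which 3 were higher, 2 lower and 3 not called (median 0.18). Prph, encoding the neuronal filament peripherin, had 198, 187, 200 and 194 counts in GapmeR 1 to 4 against 7 and 6 in the controls (log2 fold change 4.69, SE 0.28, adjusted p = 1.1e-09, edgeR). Synm, a filament cross-linker, was higher (0.68, adjusted p = 4.6e-04, edgeR), while Gfap, the astrocyte filament (−1.01, adjusted p = 0.023, edgeR), and Lmna, the A-type lamin (−0.45, adjusted p = 2.2e-04, edgeR), were lower.

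Mesenchymal surface and matrix genes were lower more often than higher. All 26 were tested, of which 1 was higher, 12 lower and 13 not called, with a median log2 fold change of −0.27. Of all genes tested, 25.4% were higher and 20.0% lower. Tnc, encoding the matrix protein tenascin C, fell from 2511 to 1036 CPM (log2 fold change −1.28, adjusted p = 7.2e-09, edgeR). Cd44, the hyaluronan receptor (−0.93, adjusted p = 1.2e-08, edgeR), Thbs1, thrombospondin 1 (−0.92, adjusted p = 2.2e-07, edgeR), and Mmp14, a membrane-bound matrix metalloproteinase (−0.72, adjusted p = 1.5e-04, edgeR), fell as well. Col1a1, Col1a2 and Col3a1, highest in GapmeR 3, were not called. Without GapmeR 3, 1 was higher and 14 were lower, where 4800 of all 17954 genes tested were higher and 3508 lower. With library size scaling 1 was higher and 10 lower.

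TGF-beta ligands, receptors and SMADs gave 1 higher, 8 lower and 17 not called of 26 (median −0.08). Of all genes tested, 25.4% were higher and 20.0% lower. Tgfb3, a TGF-beta ligand, fell from 17.3 to 6.09 CPM (log2 fold change −1.50, adjusted p = 1.3e-08, edgeR). The activin subunit gene Inhba (−0.75, adjusted p = 0.00016, edgeR), the ligand gene Bmp4 (−0.53, adjusted p = 9.3e-06, edgeR) and the coreceptor gene Eng (−0.59, adjusted p = 0.0018, edgeR) were also lower. With library size scaling, 4 were higher and 6 lower, and the median was 0.07.

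Endothelial genes, which a transition would lower, gave 2 higher, 9 lower and 7 not called of 18 (median −0.23). The shares over all genes were 25.4% higher and 20.0% lower. Emcn, the endothelial sialomucin (−1.33, adjusted p = 5.4e-10, edgeR), Fli1, an ETS factor of the endothelial lineage (−0.93, adjusted p = 1.3e-08, edgeR), and Esam, a junctional adhesion molecule (−0.63, adjusted p = 3e-06, edgeR), were lower. Erg, another ETS factor, was higher (1.12, adjusted p = 4.9e-09, edgeR), which differs from Fli1 in sign. With library size scaling the split was 5 higher and 7 lower, where 6106 of all 18234 genes were higher and 2135 lower.

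The epithelial markers, whose repression is the classical activity of SNAIL and ZEB proteins, were low in both groups, with sums of 8.55 to 9.65 CPM in the GapmeR samples and 2.19 to 2.52 CPM in the controls (2.65 to 3.61 CPM and 1.25 to 1.61 CPM without Grhl2). The GapmeR libraries also had counts in more genes, 22830 to 23566 against 20573 and 21087, and with no filter on low counts the median log2 fold change of all genes was 0.16. The part of this in the rises of low genes, Tagln, Myh11 and the epithelial, mural and fibroblast markers included, was not tested. Of 15, 9 were tested, of which 5 were higher and 0 lower by edgeR (median 1.99), and with library size scaling the split was also 5 and 0. Among the 5, Cldn4 (2 and 2 control counts), Cldn7 (4 and 2), Krt8 (1 and 2) and Ovol1 passed the filter only through the GapmeR samples. The median is the Krt8 value. The filter thus partly set this split and median, which are no separate support for a rise. Of all genes tested, 25.4% were higher and 20.0% lower in the main fit. Grhl2, a grainyhead-like factor of epithelial cells, had 233, 230, 159 and 198 counts in GapmeR 1 to 4 against 25 and 30 (log2 fold change 2.69, SE 0.20, adjusted p = 2.5e-08, edgeR). Ovol1, an epithelial zinc finger factor, had 13, 14, 12 and 16 counts against 0 and 0, at least 3.99-fold higher against a floor of 3 counts per control library. The defining epithelial gene Cdh1, encoding E-cadherin, was at 0 to 2 counts per sample and was not tested.

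**Figure D4:**
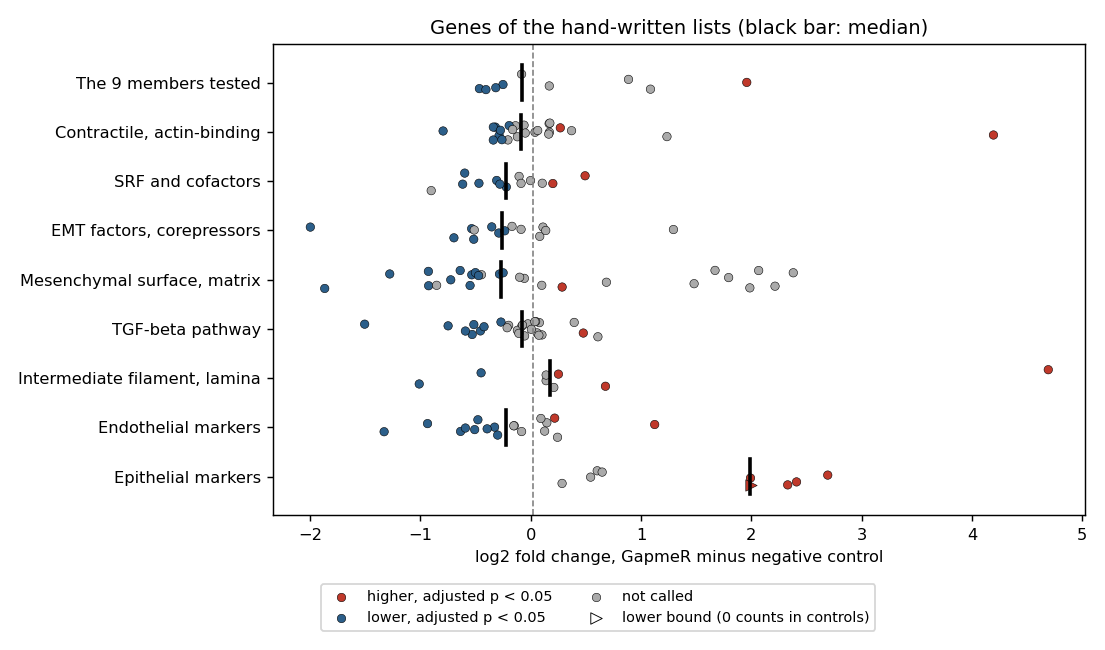
Log2 fold change (GapmeR minus negative control) of each tested gene, by list, colored by call, with a black bar at each list's median and a dashed line at the median of all genes. Tagln, Myh11 and Prph stand far to the right of their lists, while the medians of the contractile, SRF, transcription factor, mesenchymal and endothelial lists lie to the left of the dashed line.

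Markers of other cell types, checked beside the contractile genes, were called as follows, where 25.4% of all genes tested were higher and 20.0% lower. Of 16 macrophage markers 3 were higher and 0 lower by edgeR (median 1.08, and 0.25 without GapmeR 3 and 4), with Cd68 at 0.43 (adjusted p = 0.00015, edgeR), Fcer1g at 1.92 (adjusted p = 8e-05, edgeR) and Mrc1 at 1.91 (adjusted p = 0.0024, edgeR). Of 9 mural markers tested 3 were higher and 0 lower (median 1.09, and 0.37 without GapmeR 3 and 4), Myh11 and Notch3 (2.61, adjusted p = 2.4e-06, edgeR) among them. Of 9 fibroblast markers tested 1 was higher and 0 lower (median 1.39, and 0.28 without GapmeR 3 and 4). The 1 fibroblast marker called was Fap, a serine protease gene, with 188, 207, 153 and 197 counts against 5 and 2 (log2 fold change 5.49, adjusted p = 9.9e-10, edgeR). Fap passed the filter only through the GapmeR samples. Without GapmeR 3 and 4, the macrophage markers gave 5 higher and 1 lower, the mural markers 3 and 0, and the fibroblast markers 1 and 1. In that fit 4458 of all 17524 genes tested were higher and 3203 lower.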

How the data were processed

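RNA sequencing of bEND.3 total RNA was analysed in 4 GapmeR and 2 Negative control samples, grouped by their titles. According to the labels and methods, the authors trimmed reads, aligned them with STAR to mm10 and counted them per Ensembl gene; the submitters' processing notes name Trimmomatic 0.36, STAR 2.5.2b and Subread 1.5.2. The authors deposited raw counts per gene, not normalized, which were used as deposited. The strand setting is not given in the sources used here, so reads of overlapping opposite-strand genes may be mixed. Per-sample counts in 1 more column of the deposited table belonged to no sample analysed here and were left unused. The 174 rows with no gene symbol were tested under their identifiers.

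Totals were 29261988 to 37117934 counts per sample. Genes reaching 5 counts in 2 or more samples (18234) entered the edgeR 4.0.16 quasi-likelihood test (R 4.3.3, TMM, robust, two-sided, Benjamini-Hochberg adjustment over all genes tested); the biological coefficient of variation was 8.42%. The GapmeR samples had TMM factors of 1.02 to 1.05 and the controls 0.931 to 0.936, so that library size scaling shifts every fold change upward. SE and 95% intervals come from that fit. Alternatives were DESeq2 1.42.0, limma-voom 3.58.1, other scalings and filters, a replicate block, leaving out each sample and a 1.5-fold minimum; leaving out GapmeR 3 and 4 was added after seeing the data. The tests were checked on simulated counts; the limit set for false calls was met by edgeR and loosened for the alternatives after DESeq2 exceeded it. The exact intervals on summed counts (Clopper-Pearson) and the floors cover counting error only, unlike those of the fit.

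The members and gene lists were chosen with earlier results of these data known. Named genes are all members, the targeted gene, antisense genes and near copies of members, and from each list up to 4 genes with the largest called changes and a mean of at least 1 CPM, of which some are not reported here; Srf, Ovol1, Cdh1, Tcf21, the collagen genes and the genes beside Tagln were named after their values were seen. Lengths and overlaps came from GENCODE vM39 (GRCm39), used for no coordinates. Gene coordinates came from RefSeq, as did promoters and the miRNA sequence (GRCm38.p6).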

Additional observations from a re-analysis of the deposited data

Results flagged for a closer look

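The level of Vim in GapmeR 2 lay apart from the other GapmeR samples, at 4580 CPM against 5386, 5531 and 5546 CPM. Its gap to the nearest sample was 0.834 of the range of the group, above the 95% critical value of Dixon's test for 4 samples, which chance exceeds in about 1 in 20 groups. All 10 members were screened in this way and only Vim was flagged, so a flag by chance is more likely than for a single gene. GapmeR 2 was also the deepest library and the one farthest from its replicates by chi-square (18.5 to 25.2 per degree of freedom). Without it the log2 fold change of Vim was −0.34 (adjusted p = 0.000308, edgeR).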

How the results depend on the processing

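Over the 9 tested members and the alternatives that give a fold change of their own (all but the 1.5-fold minimum), 103 fold changes kept direction and call, 15 lost the call, 3 gained it and 3 turned sign. The 3 were Acta2 without GapmeR 3 and 4 (−0.035), Acta2 with the replicate block (−0.049) and Zeb1 with library size scaling (0.066). Tagln was past the threshold in all 13 settings that tested it. Members called higher numbered 1 to 2 and members called lower 1 to 4 when single samples were left out (1 lower without Negative control 2, 2 without Negative control 1). Members higher were 2 with library size scaling and with no filter, and 0 with at least 10 counts in every sample, which removed Tagln. Members lower were 1 with library size scaling and 0 at 1.5-fold or more. Over all genes, 1930 to 3949 were lower when single samples were left out, 2135 with library size scaling and 1390 at 1.5-fold or more, against 3643.

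Replicate numbers were shared by the groups only for 1 and 2, and nothing in the labels pairs the samples. Deviations of same-numbered samples correlated at −0.110 and 0.172 over 8870 genes. The fit with the number as a block, on those 4 samples, called 4530 genes higher and 3268 lower, with 1 member higher and 3 lower; Snai2 was then at −0.38 (adjusted p = 0.108, edgeR).

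The controls number 2, so each control weighs heavily. At 3 counts per library, Cnn1 lies at the limit of detection, and Acta2 and Myl9 have wide intervals.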

Other observations

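The microRNA genes of the miR-200 family, whose mature products are known to act on Zeb1 and Zeb2 transcripts, were looked up after the values of the members were seen. Mir200c had 8, 9, 9 and 9 counts in GapmeR 1 to 4 and 1 and 0 counts in Negative control 1 and 2, with no overlap (adjusted p = 0.0040, edgeR). Mir200c passed the filter only through the GapmeR samples. Summed over samples, the 35 counts against 1 gave a ratio of 15.2 per scaled library size, with an exact 95% counting interval of 2.56 to 619. Its neighbor in the same cluster, Mir141, had 2, 3, 0 and 1 counts against 0 and 0 and was not tested. Gm15884 is a long noncoding RNA on the same strand whose exons share only 4 bases with Mir200c in GENCODE vM39. It had 10, 25, 20 and 12 counts against 0 and 0, at least 4.80-fold higher against a floor of 3 counts per control library. Mir200a, Mir200b, Mir429 and Mir205 had 0 counts in every sample. The smooth muscle microRNA genes Mir143 and Mir145a also had 0 counts in every sample. Counts over a hairpin gene in total RNA libraries are not levels of the mature microRNA, which was not measured. The mature miR-200c-3p (RefSeq, GRCm38.p6, chr6:124718324-124718346, −) is shown with its seed, bases 2 to 8, in capitals.
mmu-miR-200c-3p: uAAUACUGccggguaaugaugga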
